A study of Mus musculus with 6 samples.

Results

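The loci of 10 genes that carry bone morphogenetic protein (BMP) signals were examined for accessible chromatin in skeletal stem and progenitor cells (SSPCs). They were the ligand genes Bmp2, Bmp4, Bmp6 and Bmp7, the receptor genes Bmpr1a, Bmpr1b and Bmpr2, and the genes of the signal carriers Smad1 and Smad5 and of the inhibitory Smad6. The 10 members, of 21853 protein-coding genes, were taken by name and not by any measured value. The list was chosen with earlier results of these data known. For each member, called peaks were collected within 1000 bp of any start site of a protein-coding transcript (TSS), in the gene body and in the 20 kb upstream.

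BMP ligands are secreted proteins that bring together type I receptors, such as those encoded by Bmpr1a and Bmpr1b, and a type II receptor, such as that encoded by Bmpr2. The type II receptor activates the type I receptor, which phosphorylates Smad1 and Smad5, and these join Smad4 and enter the nucleus to act on target genes. In bone and marrow stroma this pathway is known for driving progenitors towards osteoblasts, and Smad6 restrains it.

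Chromatin accessibility was profiled by ATAC-seq, which uses a transposase to tag open DNA, in 3 young and 3 middle-aged libraries. All came from untreated C57BL/6 mice, the labels name no engineered allele or agent, and the groups are set apart by age. The cells were marrow cells spun out of tibia and femur and grown in culture flasks to their first passage, and the labels give no sorting step. Which mice contributed to which library is not given in the labels, so p-values measure only the spread between these libraries, which may be technical.

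The lists held 27628 to 48344 peaks, and the middle-aged lists were the 3 longest. Young 3 stood apart, with the shortest list and the lowest background, 1.65 extended reads per base. The background was 3.75 in young 1 and 2.83 in young 2. It was lower, 2.40 to 2.79, in the middle-aged libraries, although their lists were longer. This background is the only measure of depth in the files, which give no read totals. Of 8 SSPC and stromal markers, 3 to 6 had a TSS peak per library, and Lepr and Prrx1 had none in any library. Of 8 genes of macrophages and other blood cells, 7 or 8 had one, and Ptprc, Spi1, Adgre1, Itgam, Cd68, Laptm5 and Lyz2 had one in all 6 libraries. Among 5 endothelial genes, 2 to 4 had a TSS peak. Osteoblast genes had one at 1 to 3 of 5, with none for Sp7 or Bglap, and of 6 neuronal and hepatocyte genes at most 1 had one, always Snap25. Genes of blood cells thus had TSS peaks more fully than those of SSPCs, the cell type the labels give, whose name is kept here. The part of blood and endothelial cells in the results was not tested, and a change in the share of cells with open chromatin cannot be told apart from a change in openness per cell.

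Sequences are shown for the 6 member regions, 1 per gene, with the largest difference in peak rank between the age groups among those called in every library. Each is 200 bases of build mm10 on the strand of its gene, close to the summit and clear of exons. Capitals mark matches on either strand to GGCGCC (the GC-rich element known for BMP Smads), GTCTAGAC (the Smad4 palindrome), TGTGGT (RUNX), TGANTCA (AP-1) or GGAATG (TEAD), of which none overlaps another here. Distances are those of the median summit of the region from the most upstream TSS.
Bmp7, 33992 bp downstream in an intron, chr2:172906229-172906428, minus strand: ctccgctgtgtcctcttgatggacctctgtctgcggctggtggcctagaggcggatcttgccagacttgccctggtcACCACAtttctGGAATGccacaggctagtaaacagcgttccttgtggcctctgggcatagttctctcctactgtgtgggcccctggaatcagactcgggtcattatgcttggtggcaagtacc
Bmpr1a, 600 bp downstream, chr14:34502688-34502887, minus strand: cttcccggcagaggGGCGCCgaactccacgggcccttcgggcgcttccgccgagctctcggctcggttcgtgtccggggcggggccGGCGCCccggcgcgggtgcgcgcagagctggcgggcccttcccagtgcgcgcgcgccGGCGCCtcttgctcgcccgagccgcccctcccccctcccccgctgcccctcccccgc
Bmp2, summit 25 bp downstream, chr2:133551959-133552158, plus strand: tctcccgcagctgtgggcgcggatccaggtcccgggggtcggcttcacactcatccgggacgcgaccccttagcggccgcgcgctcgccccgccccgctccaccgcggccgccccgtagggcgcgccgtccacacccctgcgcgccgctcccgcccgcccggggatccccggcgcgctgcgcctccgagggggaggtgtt
Bmpr1b, 228288 bp downstream in an intron, chr3:141941037-141941236, minus strand: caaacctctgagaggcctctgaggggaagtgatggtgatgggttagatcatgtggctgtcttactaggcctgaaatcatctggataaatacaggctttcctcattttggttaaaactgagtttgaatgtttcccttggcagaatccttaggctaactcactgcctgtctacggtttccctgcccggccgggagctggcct
Bmpr2, 12 bp upstream, chr1:59763200-59763399, plus strand: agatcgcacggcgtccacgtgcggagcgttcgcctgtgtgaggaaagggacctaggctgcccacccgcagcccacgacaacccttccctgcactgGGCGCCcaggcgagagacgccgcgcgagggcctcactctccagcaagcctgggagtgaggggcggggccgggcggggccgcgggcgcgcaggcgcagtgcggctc
Smad6, 982 bp upstream, chr9:64022941-64023140, minus strand: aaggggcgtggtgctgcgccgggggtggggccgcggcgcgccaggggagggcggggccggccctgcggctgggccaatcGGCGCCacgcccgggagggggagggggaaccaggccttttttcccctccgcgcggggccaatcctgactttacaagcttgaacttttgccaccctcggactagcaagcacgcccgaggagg

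The Bmpr1a window held GGCGCC 3 times and was 81.5% G and C. The Bmpr2 and Smad6 windows each held it 1 time, at 74% and 72.5% G and C. The intronic windows were poorer in G and C, at 56.5% for Bmp7 and 49.5% for Bmpr1b, and only that of Bmp7 held matches, 1 to TGTGGT and 1 to GGAATG. The Bmp2 window, of which 171 bases lay inside the region, held none.

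When 200 bases centred on the summit were searched instead, 6 of the 8 member regions at a TSS held GGCGCC. Of all 10372 regions at a protein-coding TSS that were called in all 6 libraries, 19.4% held it. The member regions at a TSS also had a median of 73% G and C, against 66% for that background. At none of the 7 member regions elsewhere was GGCGCC found, and 3.18% of 12031 such regions held it. TGTGGT was in 1 of 8 and 1 of 7 of these windows, TGANTCA in 0 of 8 and 1 of 7, and GGAATG in 0 of 8 and 3 of 7. The backgrounds at a TSS and elsewhere were 7.43% and 25.1% for TGTGGT, 3.61% and 22.2% for TGANTCA, and 6.35% and 11.0% for GGAATG.

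The GTCTAGAC palindrome occurred in 1 member window, in the Smad6 region whose summit lay 72 bp upstream. It is shown because it sits across the most upstream Smad6 TSS, from 4 bp upstream to 3 bp downstream, and because 0.145% of TSS regions and 0.213% of 32851 RefSeq mm10 promoters of 300 bases held it. Several motifs were searched in 15 member windows, so these shares do not measure how rare such a match is. The palindrome is in capitals.
Smad6, chr9:64022045-64022074, minus strand: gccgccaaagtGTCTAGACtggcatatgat
RefSeq promoters were matched for 8 of the 10 members, and Bmp2 and Bmp7 were not matched. GGCGCC was found in those of Bmpr1a and Bmpr2, in 2 of 3 for Smad5 and in 11.9% of all promoters. It was in none of those of Bmp4, Bmp6, Bmpr1b, Smad1 and Smad6.

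The first comparison asked which members had an open TSS. A TSS peak was called for 7, 8 and 7 of the 10 members in the young libraries, in order of replicate, and for 7, 7 and 8 in the middle-aged ones. The mean was 7.33 ± 0.577 (SD, n = 3) in both groups. Bmp2, all 3 receptor genes and all 3 Smad genes had a TSS peak in all 6 libraries, as did 48.4% of protein-coding genes. The other ligand genes did not. Bmp4 had no TSS peak in any library, Bmp6 had one in young 2 at rank 17.7, and Bmp7 had one in middle-aged 3 at rank 0.324. No member thus differed by 2 or more libraries between the groups, whereas of 13447 genes with any TSS peak 4.51% had at least 2 more middle-aged libraries and 0.178% at least 2 more young ones.

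Ranks are percentiles within a library's own list by −log10 q, from 0 for the weakest peak to 100 for the strongest, and the best TSS peak stands for the gene. They were compared for the 7 members with a TSS peak in every library. The ranks did not overlap between the age groups for 3 of them, Bmpr1a, Bmpr2 and Smad6, all higher in middle-aged libraries, against 30.6% of the 10569 genes with a TSS peak in every library. No member was lower without overlap, against 0.274% of those genes. The median difference over the 7 members was 8.24 points, and over the 10569 genes it was 4.97 points. Without young 3 these medians were 3.90 and 2.21 points. The 7 blood cell genes with a TSS peak in every library moved the same way, with mean ranks of 47.2 to 56.5 in young and 62.9 to 64.8 in middle-aged libraries. Of these 7 genes Adgre1 (difference 20.7 points) and Laptm5 (9.76) were higher without overlap, against the same 30.6% of all genes, and none was lower. The remaining blood cell gene, Csf1r, went the other way in presence. It had a TSS peak in young 2 and young 3, at ranks 17.3 and 6.19, and in no middle-aged library. The 3 SSPC and stromal markers called throughout also rose, by 33.7 points for Ebf3, without overlap, and by 4.42 for Kitl and 10.6 for Foxc1, with overlap. Runx2, the 1 osteoblast gene called throughout, rose by 13.3 points with overlap. The 1 endothelial gene called throughout, Cdh5, differed by 0.034 points, and the part of blood and endothelial cells in the members' ranks was not tested. Middle-aged lists were also longer, and with the best 27628 peaks of every list 1 member, Bmpr2, remained separate.

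**Figure D1:**
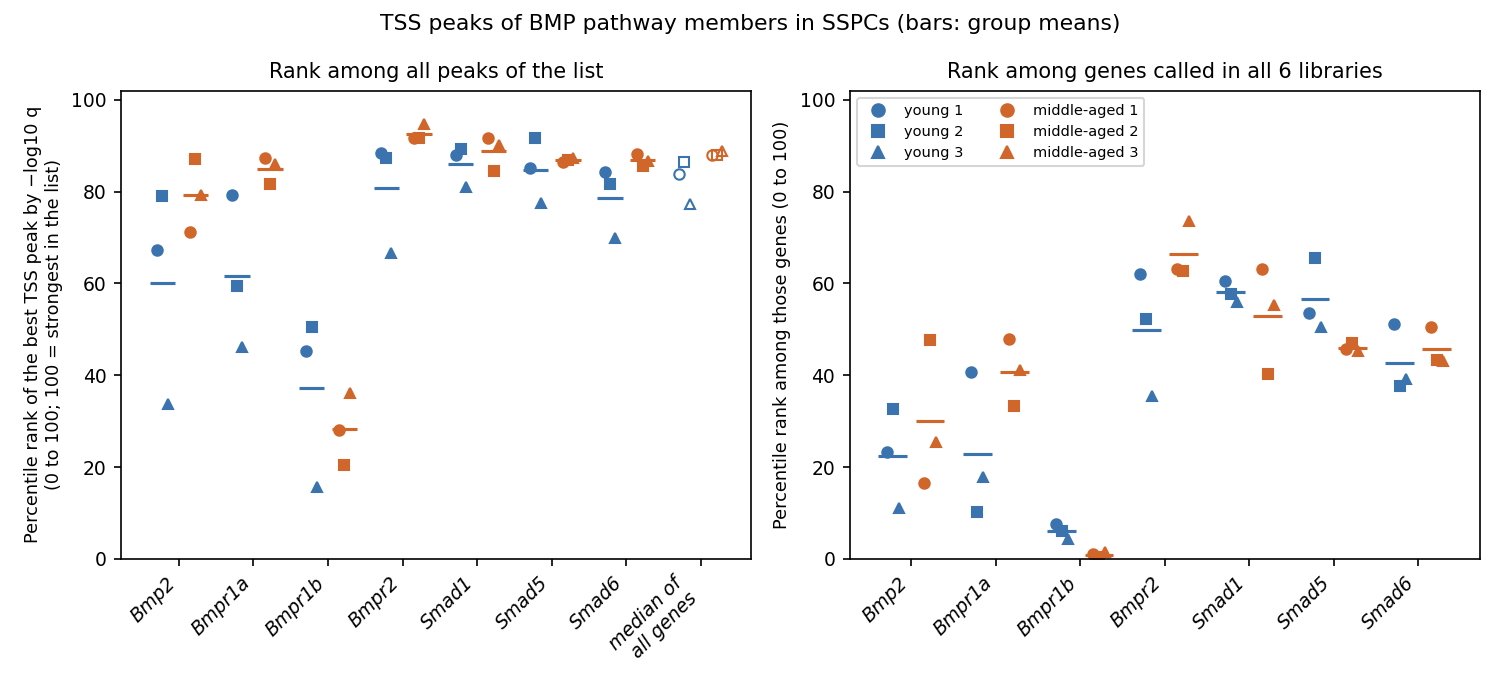
Percentile rank of the best TSS peak of the 7 members called in all 6 libraries, within the whole list (left) and among the 10569 genes called in all 6 libraries (right), with 1 point per library, bars for group means and open symbols for the median of those genes. In the left panel the groups do not overlap for Bmpr1a, Bmpr2 and Smad6, and in the right panel they do not overlap for Bmpr1b, Bmpr2 and Smad5.

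To remove that shift, the best TSS peaks were also ranked among the 10569 genes alone, a scale chosen after the data were seen. Bmpr2 was then higher without overlap, against 5.86% of these genes, and Bmpr1b and Smad5 were lower, against 6.05%. On this scale 0 of the 7 blood cell genes were separate, and Cdh5 was lower by 12.1 points without overlap. Of the SSPC and stromal markers, Ebf3 differed by 15.9 points and Kitl by −9.03 points, both without overlap, and Foxc1 overlapped. The members therefore did not differ in one direction, and of the 3 higher ranks in the whole lists that of Bmpr2 was the one that stayed separate. The plot of TSS ranks shows both scales side by side.

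Among the ligands, Bmp2 encodes a strong inducer of osteoblasts (chr2:133552159-133562885, plus strand). Its TSS peak had ranks of 67.3, 79.1 and 33.7 in the young libraries, in order of replicate as in all that follows, and of 71.1, 87.1 and 79.3 in the middle-aged ones. The fold enrichment over local background was 5.83, 7.52 and 4.67 in the young and 6.22, 9.42 and 7.52 in the middle-aged libraries. Young 3 was lowest on both scales, and the groups overlapped. The mean rank was 60.0 ± 23.6 (SD, n = 3) against 79.2 ± 8.02 (SD, n = 3), a difference of 19.1 points (two-sided exact permutation p = 0.2). Without young 3 it was 5.94 points.

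Bmp2 also had a region 1527 bp upstream, at chr2:133550179-133550896, called in every library. Its ranks were 63.3, 55.6 and 63.9 in young and 68.3, 59.5 and 63.0 in middle-aged libraries, a narrow range in which the groups overlapped and young 3 was not low. The 2 Bmp2 regions thus differed in how much they varied between libraries. A further region 828 bp downstream of the TSS was called in young 1 and middle-aged 1 at ranks 12.8 and 25.6.

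Bmp4, a ligand that acts widely in development and in marrow (chr14:46383520-46390669, minus strand), had a single region, 3228 bp downstream of its most upstream TSS. This region, chr14:46387249-46387642, overlapped annotated UTR sequence and had ranks of 26.1, 32.9 and 7.86 in the middle-aged libraries. Among young libraries it was called in young 1 alone, at rank 0.139, which is at the lower end of that list. All 4 ranks were in the lower part of their lists.

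Bmp6 encodes the ligand known for iron control (chr13:38345107-38500302, plus strand). An intronic region 65576 bp downstream, chr13:38410371-38410940, was called in middle-aged 1 and 3 at ranks 30.8 and 29.4 and in no young library. A further intronic peak, 105899 bp downstream, was called in middle-aged 2 at rank 15.7. The peaks of Bmp6 were therefore scattered, each weak and none shared by both groups.

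Bmp7 encodes a ligand used in kidney, eye and skeleton (chr2:172868012-172940321, minus strand). Its intronic region at chr2:172906181-172906582, part of which is printed above, was called in all 6 libraries. The ranks were 9.32, 46.8 and 20.02 in young and 70.8, 41.5 and 57.1 in middle-aged libraries. Young 2 lay above middle-aged 2, so the groups overlapped. The difference of 31.1 points was the largest of the 15 member regions called in every library (two-sided exact permutation p = 0.2). On the fold scale the values were 3.45, 5.45 and 5.06 in young and 8.09, 5.24 and 6.20 in middle-aged libraries.

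The type I receptor gene Bmpr1a (chr14:34410734-34503341, minus strand) had 1 region over its upstream start sites, at chr14:34502383-34503391. Its downstream start site, at chr14:34460556, had no peak called within 1000 bp in any library. Ranks in the upstream region were 79.3, 59.4 and 46.1 in young and 87.3, 81.5 and 86.0 in middle-aged libraries. Every middle-aged rank lay above every young one, and young 1 and middle-aged 2 were the closest. Mean ranks were 61.6 ± 16.7 (SD, n = 3) and 85.0 ± 3.03 (SD, n = 3), a difference of 23.3 points and the largest among TSS peaks of the members (two-sided exact permutation p = 0.1, the lowest value possible for 3 against 3). Without young 3 the difference was 15.6 points. Fold enrichment was 8.64, 6.27 and 6.11 in young and 11.4, 9.45 and 11.3 in middle-aged libraries, again without overlap. The median fold over all regions called in every library was separate by age as well. It was 7.16, 8.61 and 7.35 in young and 9.01, 9.11 and 8.98 in middle-aged libraries. When peaks were ranked by fold, or among the 10569 genes, the groups overlapped. Upstream of Bmpr1a, 1 peak was called in young 1 alone, 5045 bp away at rank 16.1.

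Bmpr1b, the other type I receptor gene (chr3:141837136-142169425, minus strand), had the weakest TSS peak of the 7 members. Its ranks were 45.3, 50.4 and 15.6 in young and 28.2, 20.4 and 36.1 in middle-aged libraries. The groups overlapped because young 3 was lowest of all. The difference was −8.92 points (two-sided exact permutation p = 0.5), and −19.7 points without young 3, where the groups no longer overlapped. Among the 10569 genes the ranks were 7.63, 5.99 and 4.39 in young and 0.979, 0.407 and 1.44 in middle-aged libraries. On that scale all 3 middle-aged ranks lay below the young ones, close to the bottom of all genes with a TSS peak in every library.

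Within the long body of Bmpr1b, stronger regions lay far from the TSS peak. Bmpr1b also has start sites at chr3:141931523 and chr3:141982264, with no peak called within 1000 bp of either. They lie nearer to these regions than the most upstream TSS, from which distances are given. The region 306428 bp downstream, chr3:141862813-141863158, overlapped a coding exon and UTR sequence and had ranks of 63.3, 82.4 and 52.2 in young and 74.4, 80.1 and 82.4 in middle-aged libraries. The intronic region 228288 bp downstream, part of which is printed above, had ranks of 57.1, 80.7 and 24.8 and of 59.0, 66.5 and 80.1. Both outranked the Bmpr1b TSS peak in all 6 libraries, and in both the groups overlapped. A region 302274 bp downstream was called in every library but young 3, at ranks 30.9 and 18.8 in those young libraries that had it and 60.6, 57.6 and 35.1 in the middle-aged ones.

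The type II receptor gene Bmpr2 (chr1:59763400-59879014, plus strand) had 1 region, over its only TSS, and no other region in its locus, with 2 called peaks inside it in young 2 and middle-aged 1 and 1 in the others. The region spanned chr1:59762840-59764264, the widest of all member regions at 1425 bp. Ranks were 88.5, 87.3 and 66.6 in young and 91.7, 91.6 and 94.6 in middle-aged libraries. The fold values were 10.9, 11.3 and 7.97 in young and 13.2, 13.9 and 15.5 in middle-aged libraries. On both scales the groups were separate and young 3 was far below the other young libraries. The separation in fold is to be read beside that of the median fold of all regions, given for Bmpr1a above. The mean ranks were 80.8 ± 12.3 (SD, n = 3) and 92.6 ± 1.72 (SD, n = 3), a difference of 11.8 points (two-sided exact permutation p = 0.1). Without young 3 it was 4.73 points. Among the 10569 genes the ranks were 62.0, 52.2 and 35.4 in young and 63.0, 62.8 and 73.6 in middle-aged libraries, so young 1 and middle-aged 2 were close to each other on that scale.

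The Smad1 gene (chr8:79338395-79399518, minus strand), whose product carries the BMP signal to the nucleus, had the locus with the most regions called in all 6 libraries. Its TSS peak had ranks of 88.0, 89.2 and 81.0 in young and 91.7, 84.5 and 90.2 in middle-aged libraries. The region 15605 bp upstream, chr8:79414882-79415340, was as strong, with ranks of 87.0, 93.8 and 74.0 and of 91.5, 86.0 and 89.0. The groups overlapped at both, with differences of 2.72 and 3.91 points (two-sided exact permutation p = 0.5 and 0.8). The upstream region therefore stood at about the level of the TSS peak.

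An intronic pair of Smad1 regions, 24924 and 24487 bp downstream, lay close together. At the first, chr8:79374434-79374778, ranks were 72.9, 73.1 and 66.4 in young and 78.6, 78.6 and 78.2 in middle-aged libraries, without overlap (difference 7.67 points, two-sided exact permutation p = 0.1). The second, chr8:79374879-79375224, was weaker and overlapping, with ranks of 41.8, 42.5 and 22.7 and of 43.3, 60.4 and 22.5. Of the 15 member regions called in every library, 4 had ranks that did not overlap, all higher in middle-aged libraries, where 24.3% of all 22403 such regions did so and 0.495% were lower. The others were the TSS regions of Bmpr1a, Bmpr2 and Smad6.

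Smad5, the close relative of Smad1 (chr13:56703010-56742377, plus strand), had 1 region, chr13:56702783-56703819, across its start sites and no other in its locus. Ranks were 85.1, 91.6 and 77.6 in young and 86.5, 86.9 and 87.4 in middle-aged libraries. The middle-aged ranks lay inside the range of the young ones, and the difference was 2.14 points (two-sided exact permutation p = 0.7). Without young 3 it was −1.46 points. Among the 10569 genes Smad5 had ranks of 53.6, 65.6 and 50.4 in young and 45.6, 47.0 and 45.3 in middle-aged libraries, lower in all 3 by 10.6 points on average.

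Smad6, which encodes an inhibitor of the pathway and is itself a known BMP target (chr9:63953076-64022059, minus strand), had 2 regions near its TSSs. The one 982 bp upstream, chr9:64022757-64023342, had ranks of 84.2, 81.6 and 69.9 in young and 88.1, 85.6 and 86.6 in middle-aged libraries. These did not overlap (difference 8.24 points, two-sided exact permutation p = 0.1), and the difference was 3.90 points without young 3. The one 72 bp upstream, chr9:64021817-64022420, which holds the palindrome, had ranks of 73.2, 78.6 and 63.1 and of 72.4, 73.1 and 75.8. There the groups overlapped, with a difference of 2.11 points, and with a window of 500 bp either side of the TSS this is the region that stands for Smad6.

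**Figure D2:**
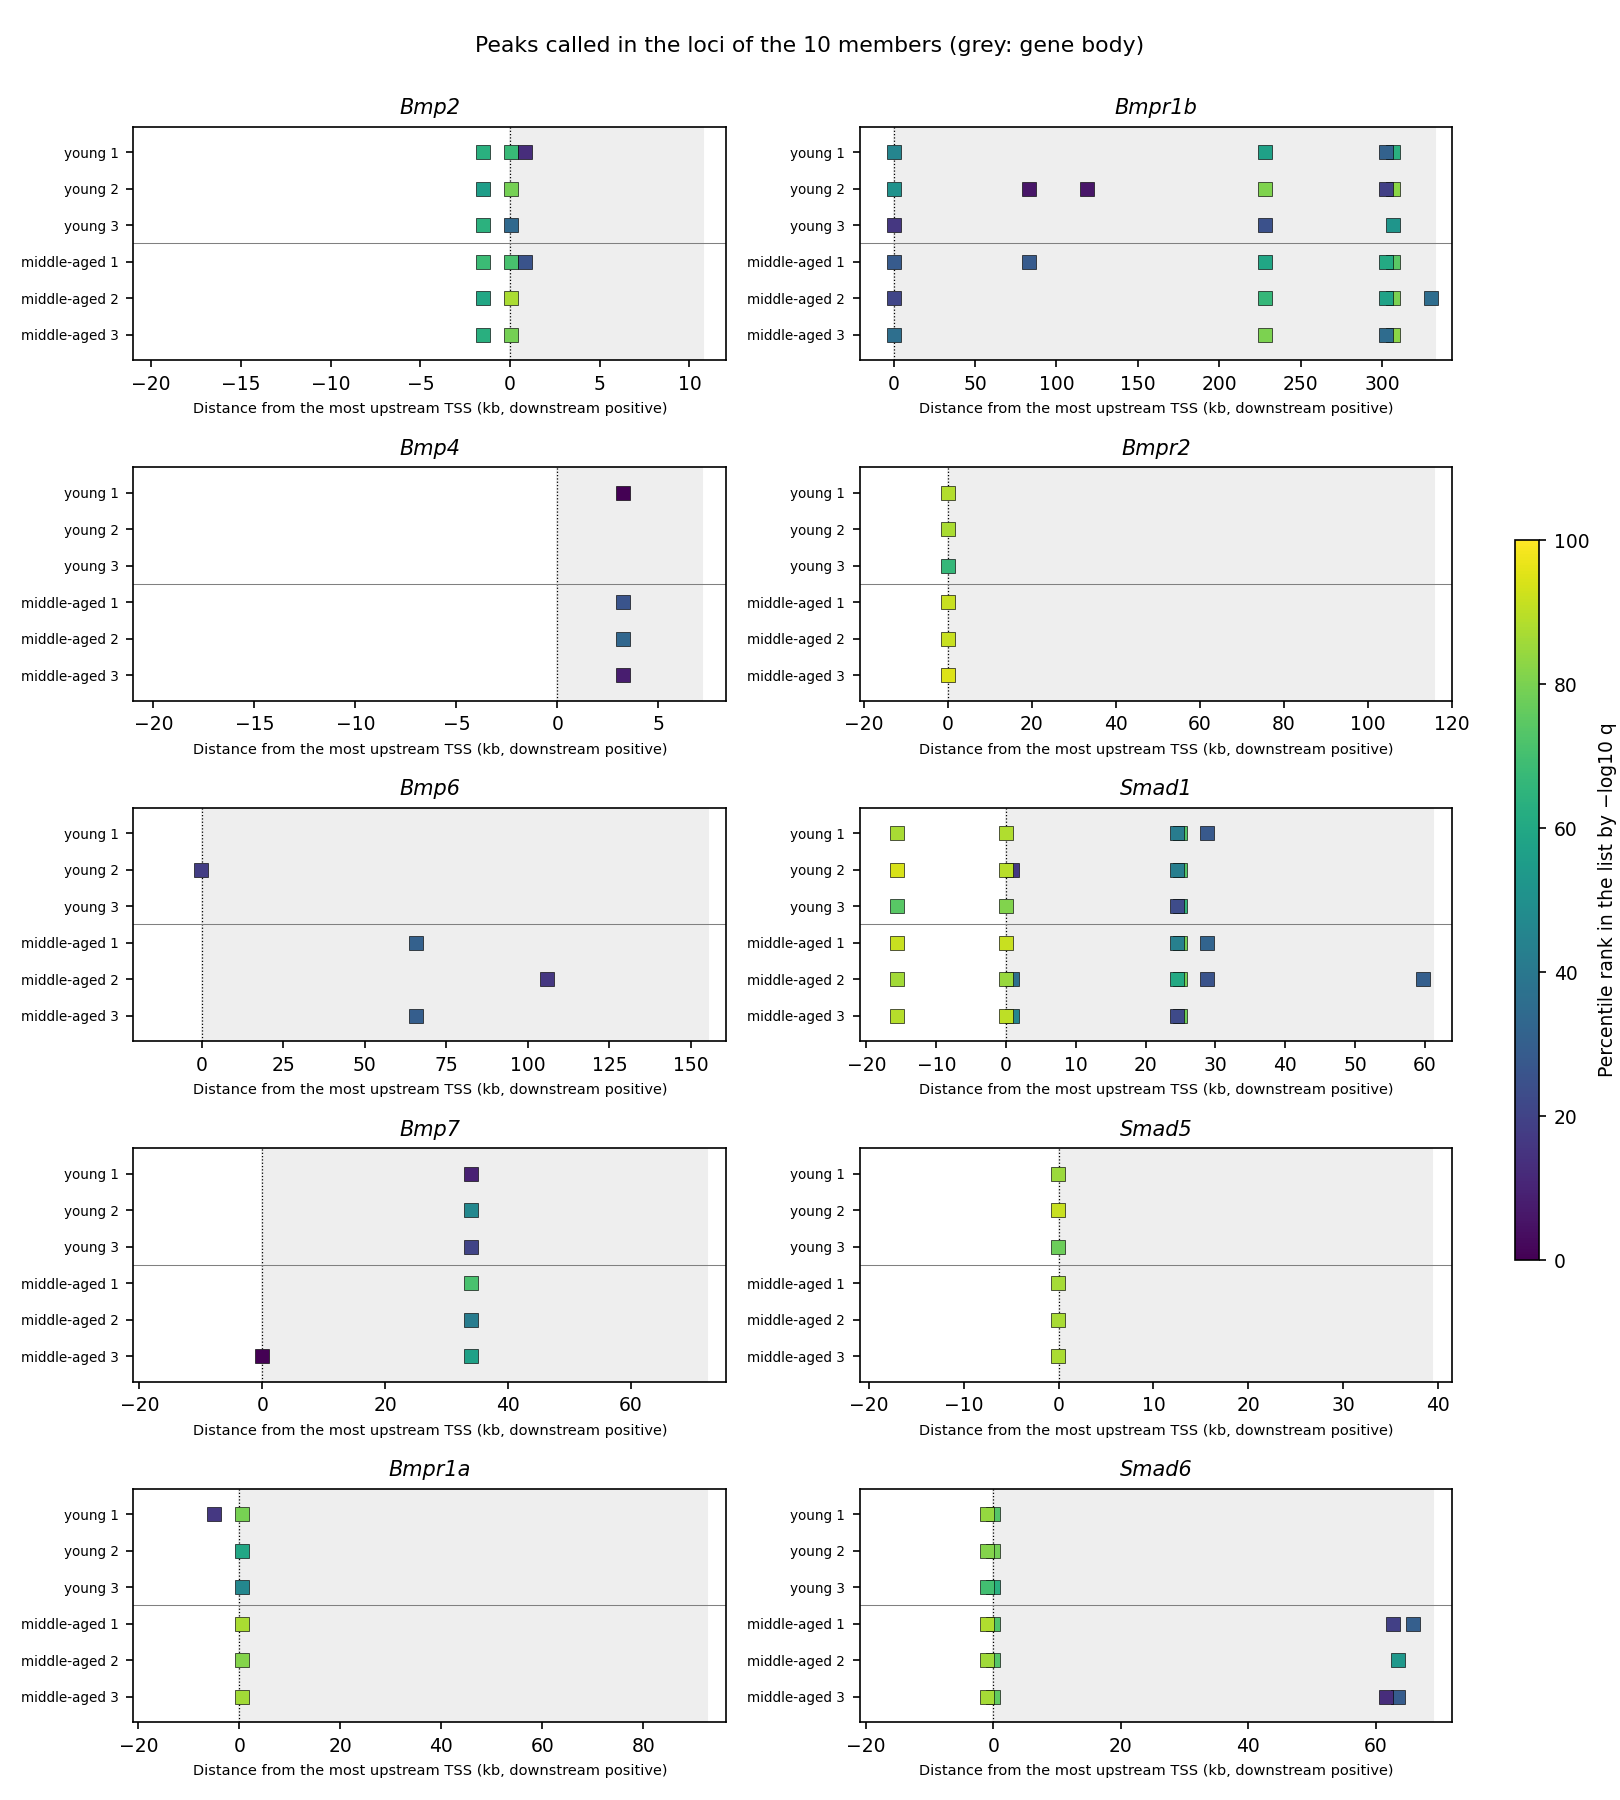
Peaks of the 10 member loci in each library, by distance of the region's median summit from the most upstream TSS in kb, with colour for the percentile rank and grey for the gene body. Bmpr2 and Smad5 show a TSS region alone, Bmp4 shows 1 region inside the gene, and Smad6 has intronic peaks 61579 to 65802 bp downstream in middle-aged libraries only.

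The loci were then compared by their number of called peaks, to ask whether more of each locus was open in middle-aged cells. In the maps of the loci, Smad6 was the member whose counts did not overlap, with 2, 2 and 2 peaks in young and 4, 3 and 4 in middle-aged libraries (two-sided exact permutation p = 0.1). Of 16949 loci with any peak, 6.6% were higher without overlap and 0.0944% lower. With equally long lists the Smad6 difference fell from 1.67 to 0.333 peaks and the groups overlapped. The added Smad6 peaks lay in an intron near the 3′ end, in 4 regions between 61579 and 65802 bp downstream. Of these, chr9:63958391-63958672 was called in middle-aged 2 and 3 at ranks 53.3 and 28.8, and the others in 1 library each at ranks from 12.7 to 29.9. No young library had a peak there.

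All members together had 20, 22 and 15 peaks in young and 24, 23 and 22 in middle-aged libraries. The mean was 19 ± 3.61 (SD, n = 3) against 23 ± 1.00 (SD, n = 3), a ratio of 1.21, beside a ratio of 1.32 for all peaks of the lists. Per 10000 peaks of the list the young mean was 5.33 ± 0.290 (SD, n = 3) and the middle-aged mean 4.88 ± 0.315 (SD, n = 3), which is 0.916 times the young value. The direction of the mean locus count thus turned once the length of the list was taken into account. The groups overlapped per 10000 peaks, with 5.01 in young 2 and 5.18 in middle-aged 1.

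Merging these peaks gave 33 regions. A peak in all 6 libraries was present at 15 (45.5%), against 35.1% of all 63840 regions. A single library held 10 of the 33 (30.3%), against 23.0% of all regions. Peaks from middle-aged libraries alone made up 9 regions (27.3%), against 25.4% of all, and peaks from young libraries alone 3 (9.09%), against 6.43%. No member region was called in all 3 middle-aged and no young libraries, which 2.21% of all regions were, and none in all 3 young and no middle-aged libraries, which 0.036% were. None of the 33 overlapped the TSS window of another gene.

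Peak heights were compared with limma on the log2 of the fold enrichment, with each library's median set to 0 and p-values adjusted over 22403 regions. Of the 15 member regions, 0 had an adjusted p under 0.05, where limma called 1 of all regions higher (0.00446%) and 0 lower (0%). At an unadjusted limma p under 0.05 there were 2 higher and 1 lower member regions, and 759 higher and 1053 lower over all regions. The member regions were split, with 7 above 0 and 8 below, and their median log2 difference was −0.0060 against −0.023 over all regions.

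The 3 regions with the lowest limma p were TSS regions of the receptor genes. Bmpr1a had a log2 difference, middle-aged minus young, of 0.39 ± 0.17 (SE; 95% interval 0.04 to 0.74; limma adjusted p = 0.579). For Bmpr2 it was 0.28 ± 0.13 (SE; 95% interval 0.02 to 0.53; limma adjusted p = 0.599). For Bmpr1b it was −0.39 ± 0.17 (SE; 95% interval −0.75 to −0.04; limma adjusted p = 0.591). The receptor genes thus lay on both sides of 0, and none passed the adjusted threshold. Leaving out 1 library moved Bmpr2 to 0.14 (without young 3) and Bmpr1a to 0.23 (without young 2) or 0.60 (without young 1). Without centring of the library medians, which moved the median of all regions to 0.21, the differences were 0.62 for Bmpr1a, 0.51 for Bmpr2 and −0.16 for Bmpr1b.

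The intervals of all Smad and ligand regions spanned 0. Smad1 had −0.10 ± 0.13 (SE) at its TSS, 0.07 ± 0.12 (SE) at its upstream region, and −0.05 ± 0.15 (SE) and −0.24 ± 0.18 (SE) at its intronic pair. Smad5 had −0.17 ± 0.12 (SE) at its TSS. Smad6 had 0.05 ± 0.15 (SE) at 982 bp upstream and −0.28 ± 0.17 (SE) at 72 bp upstream, so its 2 neighbouring regions had opposite signs. Among the ligands, Bmp2 had 0.13 ± 0.19 (SE) at its TSS and −0.29 ± 0.19 (SE) at 1527 bp upstream, and Bmp7 had 0.25 ± 0.20 (SE) in its intron.

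**Figure D3:**
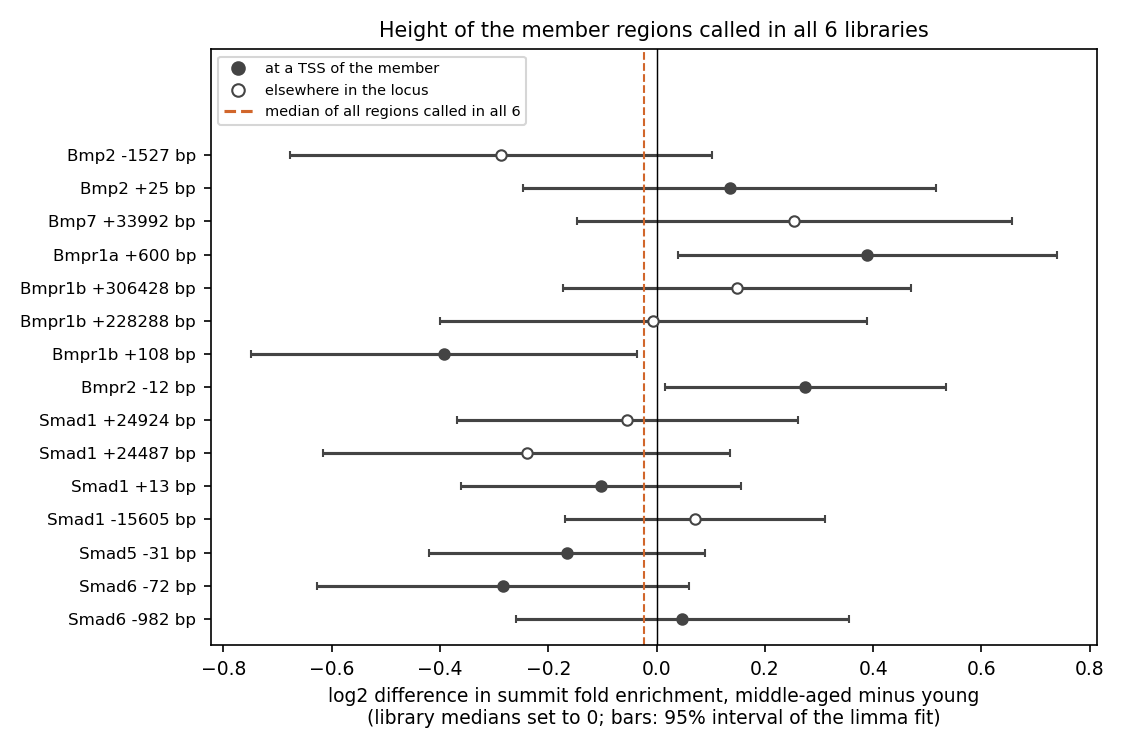
Log2 difference in summit fold enrichment, middle-aged minus young, with its 95% limma interval, for the 15 member regions called in all 6 libraries, named by gene and distance of the summit from the most upstream TSS. The intervals of Bmpr1a at 600 bp and Bmpr2 at −12 bp lie above 0 and that of Bmpr1b at 108 bp below, and no adjusted p is under 0.05.

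The other genes of the pathway were read in the same way, from a list of 45 ligands, receptors, co-receptors, Smads and their regulators, inhibitors and targets. A TSS peak was present for 27, 30 and 21 of them in young and for 29, 29 and 32 in middle-aged libraries, with 21 called in every library and 11 in none. Ligands were again the least open group, with 0 of 9 called in all 6 libraries and 6 in none, as for Bmp5, Bmp10 and Gdf5. Receptors other than Acvrl1 were open throughout, and Acvr1, a type I receptor, had ranks of 90.1 to 94.5. Smad4, the partner of Smad1 and Smad5, had ranks of 96.0 to 97.5, above every TSS rank of the members. Bambi, a decoy receptor and BMP target, ranked highest of the list at 99.6 to 99.9 in every library.

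Of the 21 pathway genes called in every library, 4 had ranks that did not overlap, all higher in middle-aged libraries, against 30.6% of the 10569 genes, and 0 were lower, against 0.274%. This share lay below the background, so the 4 are named as a description. They were the type II receptor gene Acvr2b (difference 3.95 points), the inhibitory Smad7 (5.90) and the target genes Id1 (11.4) and Id2 (4.22). Id1, an inhibitor of helix-loop-helix factors, had ranks of 60.0, 61.9 and 46.1 in young and 71.0, 64.5 and 66.6 in middle-aged libraries, with young 3 again the lowest. The median difference over the 21 genes was 4.22 points, beside 4.97 over all genes, or 1.27 and 2.21 points without young 3, and among the 10569 genes 0 of the 21 were separate in either direction.

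Presence differed by 2 or more libraries for 4 of the 34 pathway genes with any TSS peak, each with more middle-aged libraries, against 4.51% of the 13447 such genes in all, and 0.178% had at least 2 more young ones. The ligand gene Gdf6 had a TSS peak in 1 young and 3 middle-aged libraries, as did Smad9, the third receptor-activated BMP Smad, and Nbl1, which encodes a secreted BMP antagonist. Dand5, also an antagonist, had none in young and 2 in middle-aged libraries. Smad9 ranked 49.1 in young 2, its only young library with a peak, and 48.7, 20.2 and 56.0 in the middle-aged ones. Gdf6 ranked 6.46 in young 2 and 24.6, 19.5 and 42.4 in middle-aged libraries. Nbl1 ranked 8.05 in young 1 and 22.4, 5.49 and 42.1 in middle-aged libraries. Dand5 ranked 22.4 and 23.9 in middle-aged 1 and 2. None of the 4 had a TSS peak in young 3, the shortest list, and the part of list length in their presence was not tested. The grid of TSS peaks shows the 21 genes called in every library and the 11 called in none beside the members.

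**Figure D4:**
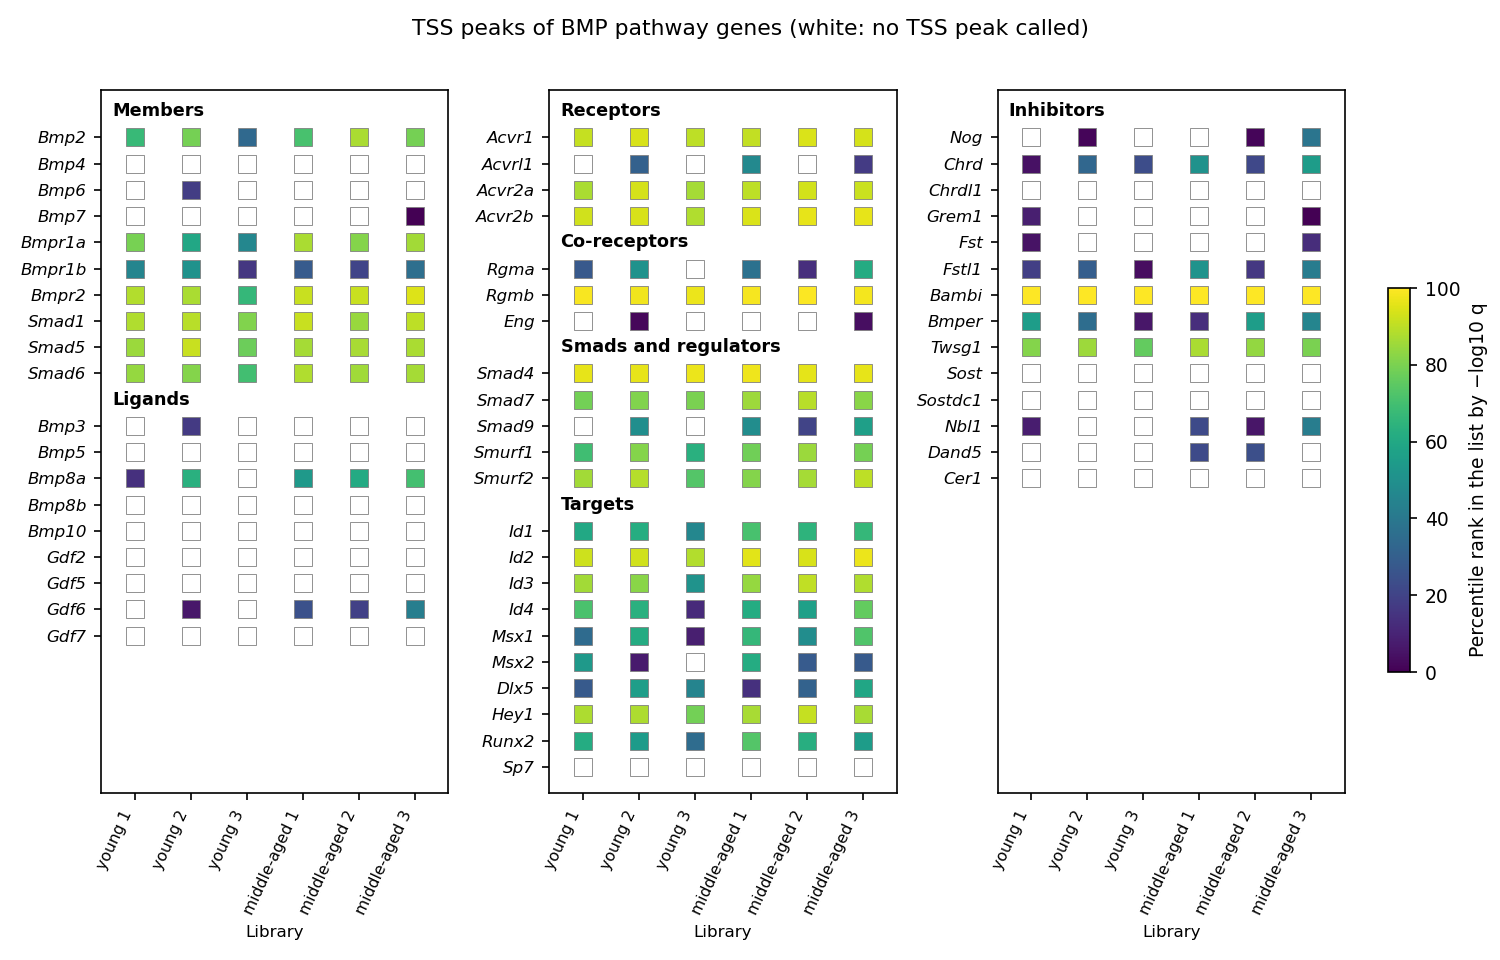
TSS peaks of the 10 members and 45 other BMP pathway genes in each library, with colour for the percentile rank of the best TSS peak and white for no peak called. Receptor and Smad genes are filled in nearly every library, and most ligand genes are white.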

How the data were processed

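ATAC-seq peak lists of 6 SSPC libraries, 3 young and 3 middle-aged by their titles, were analysed. Per the study's methods, reads were converted with bcl2fastq, aligned to mm10 with Bowtie2, cleared of duplicates with Sambamba and peaks called with MACS in each library. Whether reads were shifted to allow for the transposase is not given in the sources used here. The score deposited by the authors is the whole part of 10 times their −log10 q. The fold deposited by the authors is a ratio of summit pileup to local background, each with 1 added. The authors also deposited the −log10 p-value and −log10 q-value of each peak and the position of its summit. No file gives reads, so the differential peak test of the study was not repeated.

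Start sites were the 54361 protein-coding ones of GENCODE for mm10 (21853 genes). The annotation of a region as UTR, coding exon or intron is that of its whole span. Peaks overlapping by at least 1 bp were merged into regions, of which 22403 had a peak in all 6 libraries. Summit pileup and background were solved from fold and p with the Poisson model, which gave a whole pileup (within 0.02) for 100% of peaks. The lowest background of a list served as relative depth. Its value limits precision, and young 3 is the shallowest. Group means were compared with the exact permutation test over 20 assignments, two-sided, with a smallest p of 0.1. Fold values were fitted with limma 3.58.1 (R 4.3.3) on the log2 scale with an intensity trend, and p-values were adjusted by the Benjamini-Hochberg method over all regions. The scripts were tested on simulated data. Python 3.11.15, scipy 1.17.1 and pysam 0.24.0 were used.

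All 10 members were named, with other pathway genes that differed by at least 2 libraries or did not overlap in rank. In each locus the strongest TSS region, up to 3 further regions called in all 6 libraries, regions specific to 1 group and regions called by limma were named. Other regions and pathway genes in the text were named after their values were seen. 1 gene of the pathway list is not reported here. The members, pathway genes, markers and motifs were chosen with earlier results of these data known. Equal replicate numbers did not pair the libraries: correlations of their deviations over 22403 regions were 0.0116, 0.0115 and −0.0185. Alternatives included a minimum −log10 q of 5, equally long lists, thinning to the lowest background, leaving out each library, other windows and upstream lengths, ranking by fold, counts per 10000 peaks, joining of summits within 250 bp, a replicate block and other limma settings.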

Additional observations from a re-analysis of the deposited data

How the results depend on the processing

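Direction and call were the same in most alternatives, and limma called 0 member regions in all 12. With equally long lists the difference in members with a TSS peak, middle-aged minus young, went from 0 to −1, the number of members with separate and higher TSS ranks from 3 to 1, the ratio of locus peaks from 1.21 to 0.957, and 1 region, the Bmpr1b TSS, became specific to young libraries. This setting removes weak peaks by construction, most from the middle-aged lists. The Smad6 locus count also lost its separation (0.333 peaks). Rank differences reversed with it for Smad1 (−1.85) and Smad5 (−3.95), and locus counts for Bmpr1b (−0.667 peaks) and Smad1 (−0.333). Ranking among the genes called in all 6 libraries, chosen after the data were seen, gave 1 member higher and 2 lower, with Smad1 at −5.17 and Smad5 at −10.6. Per 10000 peaks the ratio of locus peaks was 0.916. With a window of 500 bp the Smad6 difference fell to 2.11 points and overlapped. The Bmp4 region became specific to middle-aged libraries (1 region) after thinning to the lowest background. With 50 kb upstream 1 specific region near Smad5 was added to the count by the wider window, from unchanged peak lists. The cause was not tested for the other changes.

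Leaving out 1 library at a time, the difference in members with a TSS peak ran from −0.333 to 0.333, the number of members higher from 3 to 5 and lower from 0 to 1, the locus ratio from 1.10 to 1.31, regions specific to middle-aged libraries from 0 to 1 and to young ones from 0 to 0. The 5 higher members came without young 2, when Bmp2 and Smad5 were added, and the 1 lower, Bmpr1b, without young 3. The specific region was at Bmp4 without young 1, at Smad6 without middle-aged 1 and at Bmp6 without middle-aged 2. Over these fits the Smad5 rank difference ran from −1.46 (without young 3) to 5.56 points and the Bmpr1b locus difference from −0.333 (without young 3) to 1.17 peaks. Fewer libraries make separate ranks and specific regions easier to meet.

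Of the limma log2 differences, 20 of 180 reversed, none with an adjusted limma p under 0.05. Without centring they were 0.23 for Bmpr1b at 228288 bp, 0.18 and 0.13 for Smad1 at 24924 and 13 bp, and 0.069 for Smad5. With solved pileups they were 0.060 and 0.043 for the same Smad1 regions and −0.091 for Smad1 upstream. With regions in at least 3 libraries they were 0.12 for Bmpr1b, and 0.067 and 0.018 for Smad1. Quantile normalization gave 0.013 for Bmpr1b. Leaving out 1 library at a time, the range was −0.016 (without middle-aged 2) to 0.27 at the Bmp2 TSS, −0.21 to 0.21 (without young 2) for Bmpr1b, −0.21 to 0.00074 (without middle-aged 2) at the Smad1 TSS, −0.068 (without young 3) to 0.21 for Smad1 upstream and −0.037 (without young 2) to 0.13 for Smad6 at 982 bp upstream. It was 0.14 (without young 3) to 0.40 at Bmpr2 and 0.23 (without young 2) to 0.60 at Bmpr1a, with no change of sign.

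The groups share replicate numbers that did not pair the libraries. With the number as a replicate block, 4 members were higher and 0 lower, Bmp2 being added, with a smallest exact sign permutation p of 0.25. The blocked locus ratio was 1.24, and limma with the block called 0 member regions in either direction. Depth limits all absent peaks: a locus with no called peak may hold one below the threshold of its list.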
